A study of Mus musculus with 20 samples.

Results

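The HMGN genes encode a small family of chromatin proteins, and the 4 members measured here were Hmgn1, Hmgn2, Hmgn3 and Hmgn5. They were taken by name as 4 of the 48795 Ensembl genes measured as log2-transformed normalized counts in 20 hearts of E13.5 mouse embryos. Hmgn1 lies in the duplicated region and is three-copy in the mutants, and the other members lie outside it. Hmgn5 was also picked for its difference between the 2 mutant genotypes, so that difference is given as a description with no test. All 4 genes were among the 15304 genes whose normalized count averaged at least 10, with averages taken on the log2 scale throughout. Of the hearts, 10 were WT, 5 were Dp1Tyb and 5 were Dp1TybDyrk1a+/+/-, and each is named below by its library name, such as WT heart A10.

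Dp1Tyb mice carry a tandem duplication that runs from Lipi to Zbtb21 on chromosome 16 and model the gene dosage of Down syndrome (DS). Dp1TybDyrk1a+/+/- mice carry the same duplication together with a null allele of Dyrk1a (Dyrk1atm1Mla), which is meant to return functional Dyrk1a, a kinase gene of the region, to 2 copies. All groups share the C57BL/6J background. The study bred the 2 mutants as separate strains, each with WT littermates as its controls. The labels do not tell these WT hearts apart, so each mutant was set against all 10, which pool the controls of both strains, and the comparisons with WT share them. Strain and genotype cannot be told apart between the 2 mutants. The study checked the null allele on exons of its RNA reads, which the gene-level values used here cannot show. The mean log2 value of Dyrk1a was 11.37 in WT, 11.69 in Dp1Tyb and 11.76 in Dp1TybDyrk1a+/+/- hearts.

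HMGN proteins bind the nucleosome core with no known preference for a DNA sequence, by a short positively charged nucleosome-binding domain that the family shares. They compete with linker histone H1 for nucleosomes, loosen chromatin packing and are thought to tune how strongly genes are transcribed. HMGN1 and HMGN2 are abundant in embryonic and dividing cells, HMGN3 was first found as a partner of the thyroid hormone receptor, and HMGN5 carries a long acidic tail that binds linker histone. The human HMGN1 gene lies on chromosome 21 and is one of the chromatin genes present in an extra copy in DS.

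Hmgn1 (ENSMUSG00000040681) lies on the minus strand of chr16:96121588-96127725, Hmgn2 (ENSMUSG00000003038) on the minus strand of chr4:133964739-133967991, Hmgn3 (ENSMUSG00000066456) on the minus strand of chr9:83109942-83147358 and Hmgn5 (ENSMUSG00000031245) on the minus strand of chrX:109004537-109013380 (RefSeq, GRCm38.p6, the build of the deposited data). The coding sequences of the 4 genes share 1 run of 8 identical residues, which is the core of the nucleosome-binding domain. The codons for it differ between the genes, and they are shown because they carry what makes these genes a family. Each is written 5′ to 3′ from the GENCODE M39 transcript named, with capitals at the bases that differ from Hmgn2.
Hmgn1 (Hmgn1-201, coding bases 52 to 75): CgCCgCtcCgcgaggCtgtcGgcC
Hmgn2 (Hmgn2-201, coding bases 67 to 90): agaagatctgcgaggttgtctgct
Hmgn3 (Hmgn3-201, coding bases 73 to 96): agaCgGtcGgcCaggttgtcCgcG
Hmgn5 (Hmgn5-201, coding bases 46 to 69): agaagatcAgcCCgACtgtctgct
Over these 24 bases Hmgn1 differed from Hmgn2 at 8 positions, Hmgn3 at 6 and Hmgn5 at 5. The longest run of identical bases between whole transcripts of any pair of members was 19, between Hmgn2 and Hmgn5, and no member aligned to another at 90% identity over 100 bases.

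Hmgn1 and Hmgn2 were among the most strongly expressed genes of the embryonic heart. Over the 20 hearts the mean log2 value was 13.52 for Hmgn2, above 99.0% of the tested genes, and 12.86 for Hmgn1, above 98.1%. The mean was 9.59 for Hmgn5 and 9.35 for Hmgn3, above 66.1% and 61.6% of the tested genes. Levels per kilobase of the canonical transcript followed the order Hmgn2, Hmgn1, Hmgn5 and Hmgn3 in WT hearts, at 13.37, 11.79, 7.76 and 7.36 on the log2 scale. Each neighbour in that order differed by more than the SD between WT hearts, which ran from 0.0262 for Hmgn2 to 0.104 for Hmgn5. The order of the last pair depended on the transcript used for Hmgn3, since its coding transcripts run from 990 to 4026 bases and gave 9.35 to 7.33, while those of Hmgn5 gave 7.78 to 7.69. The order of Hmgn1 and Hmgn2 rests on the canonical transcripts in the same way, at 11.35 to 14.60 over all coding transcripts of Hmgn1 and 12.55 to 14.16 over those of Hmgn2. Whole hearts were measured, so fewer cells of a type and less RNA per cell cannot be told apart in any difference below.

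Before the comparisons, 2 hearts have to be named. WT heart A10 and Dp1TybDyrk1a+/+/- heart A15 lay farther from their genotype means than the others, with a median absolute deviation over the tested genes of 0.0594 and 0.0892, against 0.0249 to 0.0398 in the other 18 hearts. Both were the lowest of their group for Hmgn1 and the highest for Hmgn3 and Hmgn5. Results are therefore given with and without them, a choice made after the data were seen.

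**Figure D1:**
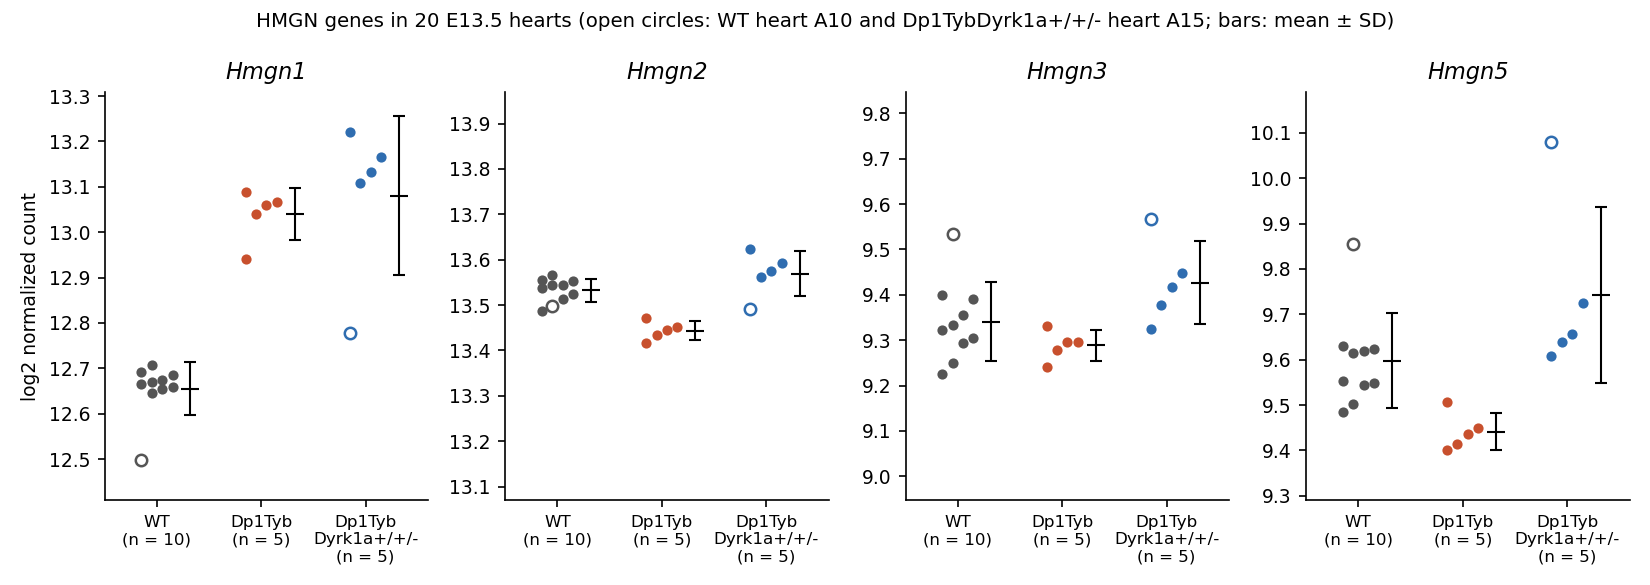
Log2 normalized count of each HMGN gene in every heart by genotype, with mean and SD as bars and y axes of equal span. Hmgn1 rose from 12.50 to 12.71 in WT hearts to between 12.78 and 13.22 in both mutants, Hmgn2 was lowest in Dp1Tyb hearts, and hearts A10 and A15 (open circles) were the highest of their groups for Hmgn3 and Hmgn5.

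To ask how the extra copy affects Hmgn1, Dp1Tyb hearts were compared to WT hearts. In the 10 WT hearts the lowest log2 value of Hmgn1 was 12.50 (A10), the median 12.67 and the highest 12.71. The 5 Dp1Tyb hearts had 12.94 (A12), 13.04 (A7), 13.06 (A4), 13.07 (A6) and 13.09 (A3). All Dp1Tyb hearts lay above all WT hearts, as they did for 1.51% of the tested genes. Hmgn1 was increased by 0.38 on the log2 scale (SE 0.0513, 95% interval 0.28 to 0.49), which is 1.30-fold (limma over all tested genes, Benjamini-Hochberg adjusted P = 6.38e-05). In the same comparison 3.08% of the tested genes were called, 1.81% as increased. An exact two-sided permutation test of the hearts gave P = 0.000666, the smallest that 3003 regroupings allow (adjusted P = 0.00244 over 11 tests of the members). Within lanes 3, 6 and 7 of the sequencer the difference was 0.39, 0.43 and 0.27, the last from 1 Dp1Tyb heart.

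Hmgn1 was also raised in Dp1TybDyrk1a+/+/- hearts. Their values were 12.78 (A15), 13.11 (A9), 13.13 (A18), 13.17 (A14) and 13.22 (A17), with heart A15 well below the other 4 and just above the highest WT heart. All Dp1TybDyrk1a+/+/- hearts thus lay above all WT hearts, which held for 0.562% of the tested genes, and the reverse held for 0.0784%. The increase over WT was 0.43 (SE 0.0513, 95% interval 0.32 to 0.53), or 1.34-fold (limma, adjusted P = 1.6e-05), where 0.712% of the tested genes were called (increased, 0.627%, or decreased, 0.0849%). The exact permutation test again gave its smallest P of 0.000666 (adjusted P = 0.00244).

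Between the 2 mutants Hmgn1 differed by less than the spread between hearts. Its mean was 13.04 ± 0.0574 over the 5 Dp1Tyb hearts and 13.08 ± 0.175 over the 5 Dp1TybDyrk1a+/+/- hearts (± SD), and the groups overlapped. The difference was -0.04 (95% interval -0.16 to 0.08; limma, adjusted P = 0.734), in a comparison that called 1.16% of the tested genes. Without hearts A10 and A15 the same difference was -0.12 and was called (limma, adjusted P = 0.0223, where 3.96% of the tested genes were called). Without A15 alone it was also -0.12 and was not called (adjusted P = 0.117).

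The duplicated region held 232 genes of the table, of which 95 were tested, and Hmgn1 ranked 16 of 95 by its log2 fold change in Dp1Tyb and 10 of 95 in Dp1TybDyrk1a+/+/- hearts. Over the 71 of them whose normalized count averaged at least 100, the median log2 fold change was 0.33 in Dp1Tyb and 0.37 in Dp1TybDyrk1a+/+/- hearts. Hmgn1 was above both, and below the 0.58 that a 3:2 ratio of copies gives on the log2 scale. The share of that gap due to the transformation of the deposited values was not tested. The study, which tested counts, reported the three-copy genes of Dp1Tyb hearts as raised by about the 3:2 ratio. The genes next to Hmgn1 are three-copy as well. Psmg1, which helps assemble the proteasome, rose by 0.29 and 0.31 in the 2 mutants compared to WT. Brwd1, a reader of acetylated histones, rose by 0.35 and 0.40, and Get1, which inserts tail-anchored proteins into membranes, rose by 0.39 and 0.37 (limma, adjusted P from 4.38e-07 to 1.48e-05). Lca5l, a weakly expressed neighbour with a mean log2 value of 5.47, was not called (0.05 and 0.11, adjusted P = 0.42 and 0.138).

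**Figure D2:**
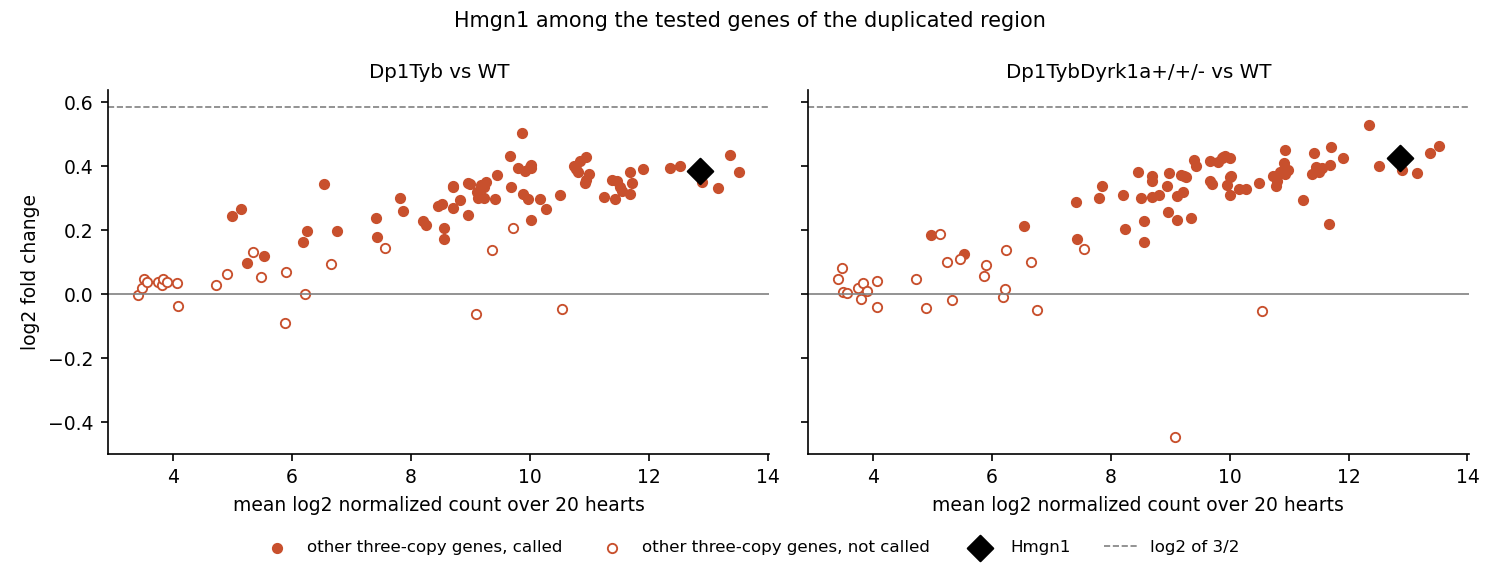
Log2 fold change against WT (y axis) and mean log2 normalized count over 20 hearts (x axis) for the 95 tested genes of the duplicated region. Hmgn1 (diamond, 0.38 and 0.43) sits at the strongly expressed end, in the upper part of the cloud and below the dashed line at 0.58.

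Hmgn2, the two-copy gene with the highest level of the family, moved the other way in Dp1Tyb hearts. Its log2 values in WT hearts ran from 13.49 (A5) through a median of 13.54 to 13.57 (A20). The Dp1Tyb hearts had 13.42 (A7), 13.43 (A12), 13.45 (A4), 13.45 (A6) and 13.47 (A3), all below all WT hearts. The decrease was small, by 0.09 on the log2 scale (SE 0.0233, 95% interval -0.14 to -0.04), a change of -5.97% (limma, adjusted P = 0.0391). In this comparison 1.27% of the tested genes were called as decreased, and in 1.12% all Dp1Tyb hearts lay below all WT hearts. The exact permutation test gave P = 0.000666 (adjusted P = 0.00244). The difference within lanes 3, 6 and 7 was -0.09, -0.07 and -0.13, the last from 1 Dp1Tyb heart. The limma call was close to its threshold. It was lost when any of 13 hearts was left out, namely any of the 5 Dp1Tyb hearts or WT heart A1, A2, A8, A11, A13, A16, A19 or A20 (adjusted P from 0.0509 to 0.11), while the difference stayed between -0.10 and -0.08. Without hearts A10 and A15 it was -0.09 with an adjusted P of 0.00273, where 7.70% of the tested genes were called.

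In Dp1TybDyrk1a+/+/- hearts the mean of Hmgn2 was slightly above that of WT hearts. The values were 13.49 (A15), 13.56 (A9), 13.58 (A14), 13.59 (A18) and 13.62 (A17), and the highest 3 lay above all WT hearts. The difference from WT of 0.04 (95% interval -0.01 to 0.09) did not pass the threshold (limma, adjusted P = 0.627; exact permutation P = 0.0799, adjusted 0.126). Compared directly, Dp1Tyb hearts had less Hmgn2 than Dp1TybDyrk1a+/+/- hearts, with no overlap between the groups. The difference was -0.13 (SE 0.0269, 95% interval -0.18 to -0.07), a change of -8.33% (limma, adjusted P = 0.0302; exact permutation P = 0.00794, the smallest that 252 regroupings allow, adjusted 0.0175). In that comparison 0.738% of the tested genes were called as decreased in Dp1Tyb, and the Dp1Tyb hearts all lay below the Dp1TybDyrk1a+/+/- hearts in 3.55% and all above them in 2.1%. Leaving out any of Dp1Tyb hearts A4, A6, A7 and A12 or Dp1TybDyrk1a+/+/- hearts A17 and A18 ended the call (adjusted P from 0.0591 to 0.075). Within lanes 3, 6 and 7 the difference was -0.13, -0.11 and -0.14. Each rests on 1 heart of 1 genotype, Dp1TybDyrk1a+/+/- in lanes 3 and 6 and Dp1Tyb in lane 7. With lane as a covariate the difference was -0.12 and no longer called (limma, adjusted P = 0.0905). The 2 comparisons that show a lower Hmgn2 share the same 5 Dp1Tyb hearts.

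The groups differed in embryo sex, read from Xist, the RNA of the inactive X chromosome. Its log2 value was above 10 in 3 of 10 WT, 4 of 5 Dp1Tyb and 1 of 5 Dp1TybDyrk1a+/+/- hearts. Among hearts with Xist above 10, Hmgn2 was 13.54 to 13.55 in the 3 WT and 13.42 to 13.47 in the 4 Dp1Tyb hearts. Among hearts with Xist below 10 it was 13.49 to 13.57 in 7 WT hearts and 13.45 in the 1 Dp1Tyb heart. With 1 Dp1Tyb heart in that set, embryo sex and genotype cannot be fully told apart here. With Xist as a covariate the differences stayed at -0.09 and -0.13 but were not called (limma, adjusted P = 0.0742 and 0.082), and far fewer genes were called in all, 245 in place of 471 and 12 in place of 178.

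**Figure D3:**
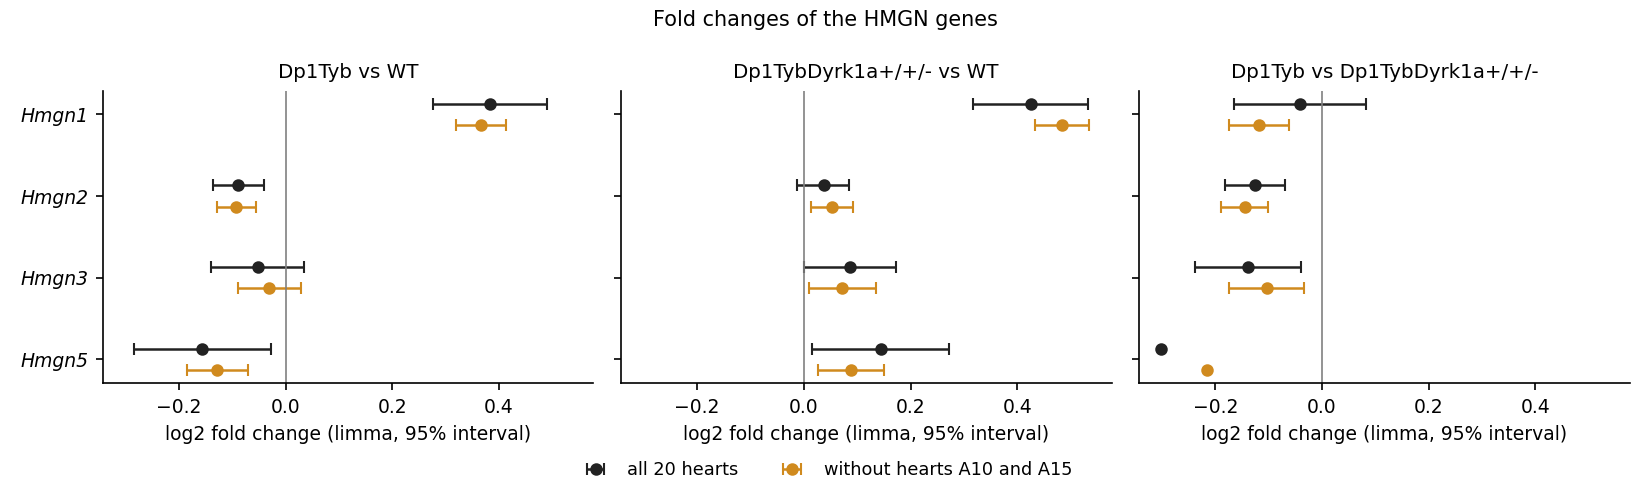
Log2 fold change of each HMGN gene (x axis) in the 3 comparisons, from limma with 95% intervals, with all 20 hearts (black) and without hearts A10 and A15 (orange). Hmgn1 lies near 0.4 in both comparisons with WT, Hmgn2 lies at -0.09 and -0.13 where Dp1Tyb is the first group, and Hmgn5 has no interval in the comparison it was picked on.

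Hmgn3, the two-copy member on chromosome 9, was not called in any comparison. In WT hearts its lowest log2 value was 9.23 (A19), the median 9.33 and the highest 9.53 (A10). Dp1Tyb hearts had 9.24 (A7), 9.28 (A6), 9.29 (A4), 9.30 (A3) and 9.33 (A12), and Dp1TybDyrk1a+/+/- hearts had 9.32 (A14), 9.38 (A18), 9.42 (A17), 9.45 (A9) and 9.57 (A15). Dp1Tyb values lay within the WT range, and all but 1 lay below the lowest Dp1TybDyrk1a+/+/- value. The log2 difference was -0.05 for Dp1Tyb compared to WT (95% interval -0.14 to 0.03; adjusted P = 0.607), 0.09 for Dp1TybDyrk1a+/+/- compared to WT (adjusted P = 0.518) and -0.14 between the mutants (95% interval -0.24 to -0.04; adjusted P = 0.133), all by limma. The exact permutation test of the hearts, which uses no other gene, gave P = 0.0159 for the last (adjusted P = 0.0291 over the 11 tests). That test takes no account of embryo sex, in which the 2 mutant groups differed. With Xist as a covariate the difference between the mutants was -0.10 (limma, adjusted P = 0.459). Without hearts A10 and A15 it was -0.10 (limma, adjusted P = 0.0871).

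Hmgn5, the X-linked member, was lowest in Dp1Tyb and highest in Dp1TybDyrk1a+/+/- hearts. The WT values ran from 9.48 (A5) through a median of 9.58 to 9.86 (A10). Dp1Tyb hearts had 9.40 (A3), 9.41 (A4), 9.44 (A7), 9.45 (A12) and 9.51 (A6), and Dp1TybDyrk1a+/+/- hearts had 9.61 (A14), 9.64 (A18), 9.66 (A17), 9.72 (A9) and 10.08 (A15). The mutant groups did not overlap, and their difference was -0.30 with all hearts and -0.22 without A10 and A15. This is the difference that Hmgn5 was picked for, so nothing is read from it, nor from the 3.55% of tested genes with that pattern. Against WT, 4 of 5 Dp1Tyb hearts lay below all WT hearts, and 1 of 5 Dp1TybDyrk1a+/+/- hearts (A15) lay above all of them.

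The comparisons of Hmgn5 with WT use the same mutant hearts as the difference it was picked for, so they are not independent of that choice. Their P values and calls are given as descriptions, and nothing is read from them. The log2 difference was -0.16 for Dp1Tyb (95% interval -0.29 to -0.03; limma, adjusted P = 0.209; exact permutation P = 0.002, adjusted 0.00549) and 0.14 for Dp1TybDyrk1a+/+/- (95% interval 0.02 to 0.27; limma, adjusted P = 0.467; exact permutation P = 0.112, adjusted 0.137). The limma result for Dp1Tyb turned on heart A15. Without A15 alone the difference was -0.16 and was called (adjusted P = 0.0312), and without both it was -0.13 and was called (adjusted P = 0.00685). Among WT hearts Hmgn5 was 9.55 to 9.63 in the 3 with Xist above 10 and 9.48 to 9.86 in the other 7, so the ranges overlapped. In Dp1Tyb hearts it was 9.40 to 9.45 in the 4 with Xist above 10 and 9.51 in the other 1. In Dp1TybDyrk1a+/+/- hearts it was 9.61 in the 1 with Xist above 10 and 9.64 to 10.08 in the other 4. Embryo sex and genotype cannot be fully told apart for Hmgn5 either.

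Within a heart the balance between the members changed with genotype, and a shift of a whole heart on the log2 scale cancels in such a difference. These values come from read counts not corrected for length, so they compare genotypes and not the levels of the genes. Hmgn1 minus Hmgn2 was -0.88 ± 0.0506 over the 10 WT hearts, -0.40 ± 0.0496 over the 5 Dp1Tyb hearts and -0.49 ± 0.129 over the 5 Dp1TybDyrk1a+/+/- hearts (± SD). The WT hearts ran from -1.0 to -0.83 and did not overlap with the Dp1Tyb hearts at -0.49 to -0.37 or the Dp1TybDyrk1a+/+/- hearts at -0.72 to -0.40. Hmgn1 alone lay above all WT hearts in both mutants, by 0.38 and 0.43 on average, and its rise enters each of these differences. How many other gene pairs show no overlap was not computed. Hmgn1 minus Hmgn5 was 3.06 ± 0.156 in WT, 3.60 ± 0.0760 in Dp1Tyb and 3.34 ± 0.366 in Dp1TybDyrk1a+/+/- hearts, the last from 2.70 in A15 to 3.56. Hmgn1 minus Hmgn3 was 3.31 ± 0.138, 3.75 ± 0.0803 and 3.65 ± 0.258.

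For shares, the deposited log2 values were turned back to the count scale, so the effect of their transformation stays in them. Of the sum of the 4 genes on that scale, Hmgn1 gave 32.7% ± 0.904 in WT (SD, n = 10), 40.3% ± 0.856 in Dp1Tyb (n = 5) and 38.7% ± 2.46 in Dp1TybDyrk1a+/+/- hearts (n = 5). Hmgn2 gave 60.1% ± 0.462, 53.4% ± 0.695 and 54.3% ± 1.30 of the sum. The shares of a heart add up to the whole, so a rise of Hmgn1 alone lowers the Hmgn2 share. That share was lower in Dp1TybDyrk1a+/+/- than in WT hearts, although the log2 value of Hmgn2 itself differed by 0.04 there. The sum itself, on the same scale, was 19731 ± 341 in WT, 20885 ± 427 in Dp1Tyb and 22423 ± 1222 in Dp1TybDyrk1a+/+/- hearts. All Dp1Tyb hearts, from 20270 to 21366, and all Dp1TybDyrk1a+/+/- hearts, from 20379 to 23643, lay above the highest WT heart at 20045. The same held for Hmgn1 alone, which is part of the sum. No test was run on these scores.

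**Figure D4:**
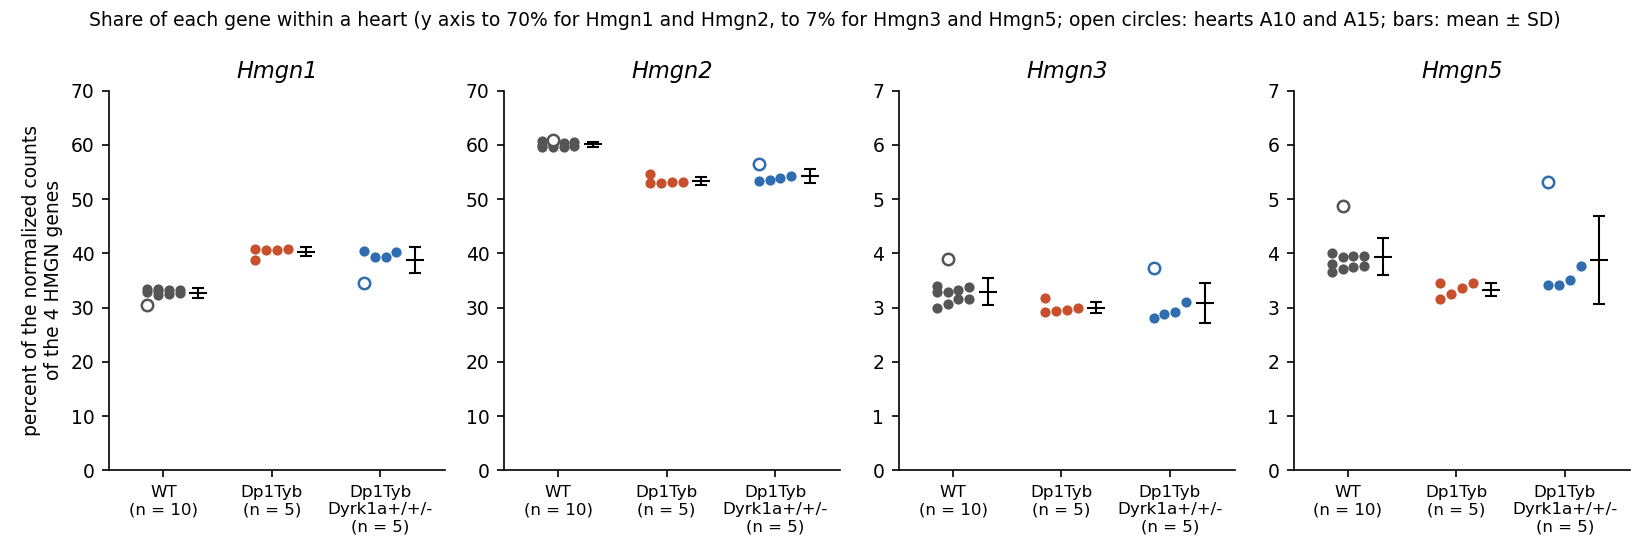
Share of each HMGN gene in the sum of the 4 genes, per heart and genotype, with mean and SD as bars. The log2 values were turned back to the count scale (y axes in percent from 0, with a longer axis for Hmgn1 and Hmgn2). Hmgn1 takes 30.4 to 33.5% in WT hearts and 38.8 to 40.8% in Dp1Tyb hearts, and Hmgn2 takes 59.5 to 60.8% and 52.9 to 54.6%. The shares of a heart add up to the whole, so a rise of Hmgn1 alone lowers the share of Hmgn2.

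The members varied together around their genotype means, and this rested mostly on hearts A10 and A15. Over the 20 deviations from the genotype means, Pearson's r was 0.78 between Hmgn1 and Hmgn2, -0.87 between Hmgn1 and Hmgn5, -0.72 between Hmgn1 and Hmgn3 and 0.70 between Hmgn3 and Hmgn5. Without hearts A10 and A15 the same values were 0.46, -0.17, -0.26 and -0.00 over 18 hearts. These correlations share libraries and scaling and are given as descriptions.

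**Figure D5:**
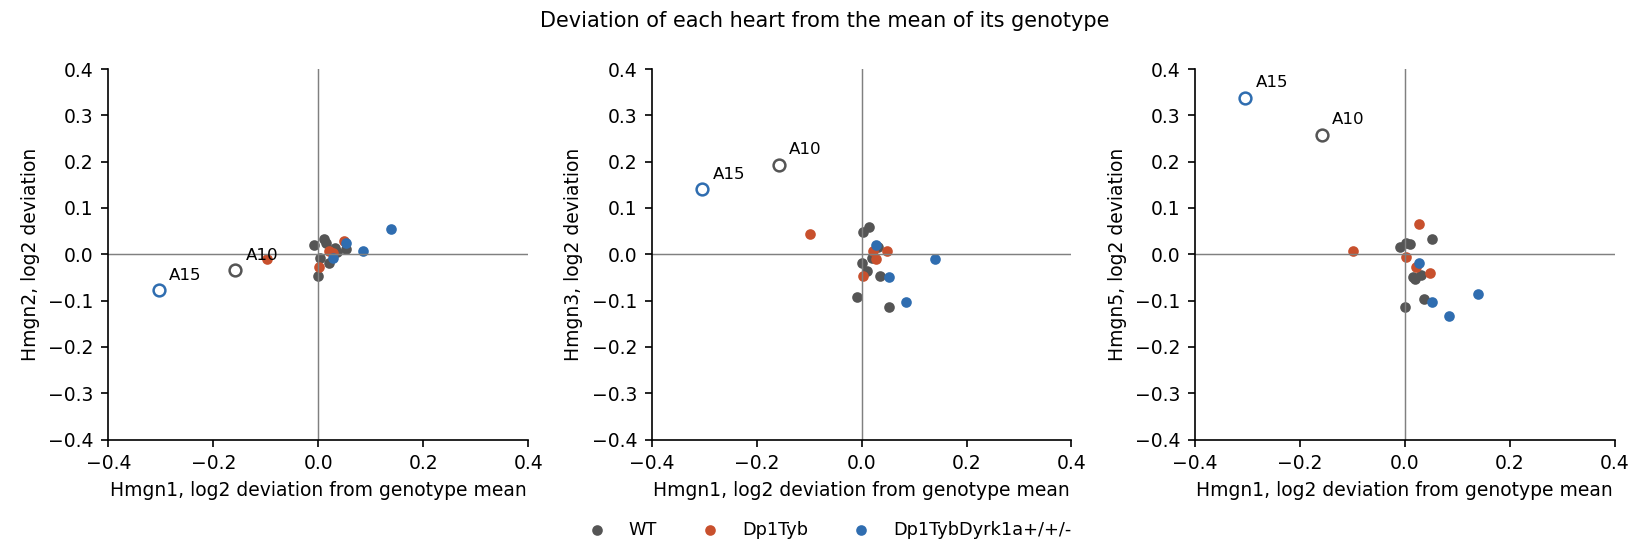
Log2 deviation of each heart from its genotype mean for Hmgn1 (x axis) against Hmgn2, Hmgn3 and Hmgn5 (y axes). Hearts A10 and A15 lie farthest to the left in every panel and highest for Hmgn3 and Hmgn5, and the other 18 hearts lie closer to 0.

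The genes whose values followed Hmgn1 most closely over the 20 hearts were three-copy genes of the same region, Gart, Cct8, Atp5pf, Donson and Cryzl1 (Pearson's r from 0.96 to 0.98). After the genotype means were removed, the closest to Hmgn1 were Set, Rpl9, Rbbp4, Psma7 and Rpl8 (r of 0.96 and 0.97 over 20 hearts), and without hearts A10 and A15 they were Ranbp1, Pdxdc1, Nasp, Rpl19 and Set (r from 0.83 to 0.88 over 18 hearts). Nasp and Set are histone chaperones. Over the 20 hearts Hmgn2 was most like Anp32e, Hmgb2, Nucks1, Dnajc9 and Tmpo (r from 0.84 to 0.90). Anp32e removes the histone variant H2A.Z, Hmgb2 bends DNA, Nucks1 is a nuclear DNA-binding protein and Dnajc9 is a histone chaperone. The r over the 20 hearts includes the difference between genotypes. With genotype means removed, the closest to Hmgn2 were Gprc5c, Actl6a, Actr10, Cct8 and Vrk1 over 20 hearts (r of 0.84 and 0.85). Over the 18 hearts without A10 and A15 they were Nucks1, Cln6, Odc1, Pcdhgb6 and Dusp9 (r from 0.77 to 0.84). Of these, only Nucks1 was also among the closest 5 before the means were removed. Hmgn5 was most like Smc1a, Smc6, Nsrp1, Ccdc88a and Gm13237 (r of 0.94 and 0.95), where Smc1a and Smc6 are subunits of ring complexes that hold chromatin, and after removing the means and the 2 hearts Nxt2 was closest (r = 0.83). Hmgn3 was most like Epc1, Isca2, Gm9830, Cibar1 and AW554918 (r from 0.88 to 0.90), and without the 2 hearts Aptx was closest (r = 0.79).

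Other proteins that act on the same nucleosomes were examined as lists. Over all tested genes, 1.27% were called as decreased in Dp1Tyb compared to WT hearts and 0.738% in Dp1Tyb compared to Dp1TybDyrk1a+/+/- hearts. Of 5 tested linker histone genes, which encode the proteins HMGNs compete with, 1 was called as decreased in Dp1Tyb compared to WT hearts and none as increased, with a median log2 fold change of -0.0563 against -0.00187 over all tested genes. The called gene was H1f0, the replacement linker histone of slowly dividing cells, which fell by 0.21 (SE 0.0348, adjusted P = 0.000804). The list had 0 calls by limma in the other 2 comparisons, with 1 and 2 genes at an unadjusted P under 0.05, all with a lower value in the first genotype named. Over the 18 hearts without A10 and A15 there were 2, 1 and 1 calls, all decreased, from H1f0 and H1f10, where 7.7%, 1.39% and 3.96% of all tested genes were called. Of 11 tested genes for other high mobility group and AT-hook proteins, 2 were called as decreased in Dp1Tyb compared to WT (median -0.0366). They were the HMG-box genes Hmgb2 and Hmgb3, each lower by 0.14 (log2 difference -0.14, adjusted P = 0.0114 and 0.00606). The same pair was called in Dp1Tyb compared to Dp1TybDyrk1a+/+/- hearts (-0.17 and -0.16, adjusted P = 0.0304 and 0.0182). In Dp1TybDyrk1a+/+/- compared to WT hearts the list had 0 calls by limma and 0 genes at an unadjusted P under 0.05. Leaving out hearts A10 and A15, the calls in the 3 comparisons were 2, 0 and 3, with Hmgb1 added in the last.

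Among 19 tested genes for kinases, acetylases and partners of HMGN proteins, 1 was called as increased and 3 as decreased in Dp1Tyb compared to WT (median -0.0327). Among all tested genes these calls took 1.81% and 1.27%. Rps6ka1, a ribosomal S6 kinase gene of the family that phosphorylates HMGN1 and also a neighbour of Hmgn2, rose by 0.14 (adjusted P = 0.000965). Tmpo, a protein of the nuclear lamina, Nasp and Pcna, the sliding clamp of DNA replication, fell by 0.11, 0.12 and 0.09 (adjusted P = 0.00207, 0.0209 and 0.0355). The same 3 genes were decreased in Dp1Tyb compared to Dp1TybDyrk1a+/+/- hearts, with no gene increased (median -0.0483, against 0.00278 over all tested genes). There 0.738% of all tested genes were called as decreased. The list had 0 calls by limma in Dp1TybDyrk1a+/+/- compared to WT, with 2 genes at an unadjusted P under 0.05, and the same genes were called in each comparison without hearts A10 and A15. Of 10 tested genes described elsewhere as responding to HMGN proteins, 0 were called by limma in each comparison, and 2, 0 and 2 had an unadjusted P under 0.05. When hearts A10 and A15 were left out, Sox9, a transcription factor of the valve cushions, was called as increased in Dp1Tyb compared to WT, and the other 2 comparisons had 0 calls.

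Proliferation genes differed in the same comparisons as Hmgn2 and are given beside it. Of all tested genes, 1.27% were called as decreased in Dp1Tyb compared to WT and 0.738% in Dp1Tyb compared to Dp1TybDyrk1a+/+/- hearts. Of 14 proliferation genes tested, 4 were called as decreased in Dp1Tyb compared to WT (Top2a, Ccna2, Pcna and Bub1, median -0.103) and 5 in Dp1Tyb compared to Dp1TybDyrk1a+/+/- hearts (Ccna2, Pcna, Cenpf, Kif20b and Bub1, median -0.117). None was called in Dp1TybDyrk1a+/+/- compared to WT by limma, with 1 gene at an unadjusted P under 0.05 (median 0.0107). Without hearts A10 and A15 the calls were 10, 8 and 0 of 14, in fits that called 7.7%, 3.96% and 1.39% of all tested genes. The part of proliferation in the Hmgn2 difference was not tested. The 14 tested genes of Polycomb repressive complex 2 and the H3K27 demethylases had 1 call, Ezh2, decreased by 0.08 in Dp1Tyb compared to WT and by 0.11 compared to Dp1TybDyrk1a+/+/- hearts (adjusted P = 0.0419 and 0.0408). Of 19 tested three-copy genes for chromatin and transcription proteins, Hmgn1 included, 15 were called as increased in each mutant compared to WT, with a median of 0.298 in Dp1Tyb and 0.338 in Dp1TybDyrk1a+/+/- hearts. Of all 95 tested three-copy genes, 72 and 69 were called as increased in these comparisons, with medians of 0.3 and 0.33. The list thus moved as the duplicated region did.

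The hearts carried the markers of their labelled tissue. All 8 cardiomyocyte markers were above 0 in every group, with a log2 summed level of 18.14 to 18.60 in WT, 18.09 to 18.34 in Dp1Tyb and 18.21 to 18.52 in Dp1TybDyrk1a+/+/- hearts. The 6 fibroblast and mesenchyme markers summed to 16.24 to 16.74, 16.57 to 16.78 and 16.31 to 16.79. Blood in the hearts varied most, with the 10 erythroid markers at 16.48 to 18.72 in WT, 17.49 to 18.62 in Dp1Tyb and 17.16 to 18.59 in Dp1TybDyrk1a+/+/- hearts. The 5 liver markers stayed at 5.43 to 5.69 in all groups. Epithelial markers of lung and foregut, 5 in all, were at 7.66 to 8.78, 7.62 to 8.40 and 7.61 to 8.51. The groups overlapped for each of these sums, and their part in the HMGN differences was not tested. Over all 20 hearts the summed markers ran from 14.15 to 14.34 for endothelium, 14.38 to 14.71 for smooth muscle, 12.17 to 12.44 for epicardium, 10.36 to 10.60 for macrophages and 8.57 to 8.96 for neural crest derivatives. No marker of these 10 cell types was called by limma in any comparison, with 0 to 3 genes of a list at an unadjusted P under 0.05. All 6 fibroblast and mesenchyme markers were higher in Dp1Tyb than in WT and Dp1TybDyrk1a+/+/- hearts (3 and 2 at that P). Of the 8 cardiomyocyte markers, 3 and 1 were higher in Dp1Tyb, and 2 and 3 were lower at that P. The study's single-cell data, with 1 Dp1Tyb heart, held fewer ventricular and atrial cardiomyocytes and more fibroblasts in Dp1Tyb than in WT. With hearts A10 and A15 left out, 1 of the 8 cardiomyocyte markers was called, Tnnt2, the troponin T of heart muscle, which was lower in Dp1Tyb than in Dp1TybDyrk1a+/+/- hearts (-0.21, adjusted P = 0.0332), as Hmgn2 was. None of 10 genes of the atrioventricular canal and node and 14 of the ventricular chambers was called either over the 20 hearts, with 2, 2 and 0 and with 4, 1 and 3 genes at an unadjusted P under 0.05 in the 3 comparisons. Over the 18 hearts Myl2, the ventricular myosin light chain, was called as lower in Dp1Tyb than in Dp1TybDyrk1a+/+/- hearts (-0.23, adjusted P = 0.0215), and no other gene of these 2 lists was called.

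Near-identical copies and overlapping genes limit what the counts of the members can show. Hmgn2 had 27 genes, mostly processed pseudogenes, that aligned to its transcript at 90% identity or more over at least 100 bases, of which 16 were in the table and 4 were tested. The 4 were Hmgn2-ps, Gm10357, Gm10182 and Gm6750, at mean log2 values of 6.85, 6.01, 5.29 and 7.83 and none called in any comparison. Hmgn2-ps shared a run of 293 identical bases with Hmgn2, so reads of that stretch could be counted for either gene. Hmgn1 had 6 such genes, Hmgn3 had 1 and Hmgn5 had 2, and the tested ones among them (Gm7862, Myl4 and Gm11914) were not called either. Hmgn5 overlaps Sh3bgrl on the opposite strand over 1290 bases. Sh3bgrl had a mean log2 value of 11.64 and differed by -0.01 in Dp1Tyb compared to WT (limma, adjusted P = 0.936). Whether the counting used strand was not given in the sources used here. Of the other genes beside Hmgn2, Hmgn3 and Hmgn5, Lca5, a cilium gene next to Hmgn3, was lower in Dp1Tyb than in WT hearts by a log2 difference of -0.11 (limma, adjusted P = 0.0208). Arid1a, Dhdds, Lin28a, Irak1bp1, Phip, Sh3bgrl2, Tent5d, Brwd3 and Rps6ka6 were not called in any comparison.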

How the data were processed

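RNA from 20 whole hearts was sequenced as KAPA mRNA HyperPrep libraries on an Illumina HiSeq. The submitters' processing notes name Trimmomatic 0.36, STAR 2.5.2a, RSEM 1.2.31, DESeq2 and the genome build GRCm38. The values the authors deposited are log2 normalized counts of 48795 genes, of which 19473 are at 0 in every heart. The depth of the libraries is unknown, so precision was judged from hearts of 1 genotype. Such a transformation draws values towards the mean of a gene, most for weakly expressed genes, and may understate fold changes. By how much at each level was not tested.

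The authors tested counts with DESeq2, and here limma 3.58.1 in R 4.3.3 was used on the deposited log2 values (lmFit and eBayes with trend, all 20 hearts, 1 mean per genotype, genes averaging at least 10 normalized counts, Benjamini-Hochberg adjusted P under 0.05). It was tested on simulated data. Exact permutation tests regrouped the hearts of the compared groups, with the two-sided P as scipy 1.17.1 gives it. The members and lists were chosen with earlier results of these data known. Names came from GENCODE M39 for 44565 genes, locations from RefSeq, and copies from blastn 2.17.0. Genes were named by a rule: the members, their copies, the 2 nearest tested protein-coding genes on each side, listed genes past the threshold and, for each member, the 5 genes of highest Pearson's r. Alternatives were other filters, normalizations, variance models, weights, covariates and samples. Tables and plots were made with Python 3.11.15, numpy 2.4.6, pandas 2.3.3 and matplotlib 3.10.9. Protein sequences were not used here, and 1 result for a gene on the list of genes responding to HMGN proteins is not reported here.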

Additional observations from a re-analysis of the deposited data

Results flagged for a closer look

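In WT hearts, A10 lay apart from the other 9 for Hmgn1 (12.50) and for Hmgn5 (9.86), and in Dp1TybDyrk1a+/+/- hearts, A15 lay apart from the other 4 for Hmgn1 (12.78) and for Hmgn5 (10.08), each by a gap above Dixon's critical value. These are 4 of 12 groups of values examined, where chance alone flags about 1 in 20 of independent groups. All 4 come from the same 2 hearts, so the groups are not independent and their count cannot be set against that rate. The change of Hmgn2 against WT differed between the 2 mutant genotypes by -0.13, with Dp1Tyb the lower (limma, adjusted P = 0.0302, lower in 5 of 5 hearts). That difference is the direct comparison of the mutants given above.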

How the results depend on the processing

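Under the 11 alternatives other than leaving out single hearts, Hmgn1 stayed called in both comparisons with WT (0.37 to 0.41 and 0.39 to 0.49) and Hmgn3 was never called. Quantile normalization turned Hmgn1 between the mutants to 0.02 and Hmgn2 in Dp1TybDyrk1a+/+/- compared to WT to -0.00334, and ended the Hmgn2 calls (-0.08, adjusted P = 0.144, in Dp1Tyb compared to WT, and -0.08, adjusted P = 0.221, between the mutants). Hmgn2 also lost its call with Xist as a covariate (-0.09 and -0.13), and between the mutants with lane as a covariate (-0.12) or only the 2 groups in the fit (-0.13, adjusted P = 0.172). Weights per heart gave a call to Hmgn1 between the mutants (-0.11) and Hmgn5 in Dp1Tyb compared to WT (-0.13), and leaving out A10 and A15 did the same (-0.12 and -0.13). The Hmgn5 call uses mutant hearts on which that gene was picked, so nothing is read from it. Both alternatives moved Hmgn5 between the mutants to -0.22. The cause was not tested.

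For Dp1Tyb against WT, Dp1TybDyrk1a+/+/- against WT and Dp1Tyb against Dp1TybDyrk1a+/+/- in that order, the genes called numbered 471, 109 and 178, and 1422, 341 and 1247 with weights per heart, and 1178, 212 and 606 without A10 and A15. With Xist as a covariate the first and last were 245 and 12. Fitting only the 2 groups gave 779 in the first and 3 in the last. The last was also 76 with no filter, 273 among genes averaging at least 100 normalized counts and 29 with lane as a covariate.

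Leaving out single hearts, the counts ran from 266 (without Dp1Tyb A4) to 959 (without A15), from 88 to 158, and from 30 (without Dp1Tyb A4) to 404 (without A10). The first also fell to 303, 300 and 293 without Dp1Tyb A12, A3 and A6. The last was 302 without Dp1TybDyrk1a+/+/- A14, 36, 93 and 104 without A17, A18 and A9, 71, 77, 50 and 84 without Dp1Tyb A12, A3, A6 and A7, and 104, 115, 109 and 104 without WT A1, A2, A8 and A16. Hmgn1 ran from 0.37 to 0.41, 0.39 to 0.50 and -0.12 to -0.01, Hmgn2 from -0.10 to -0.08, 0.02 to 0.06 and -0.14 to -0.11, Hmgn3 from -0.06 to -0.03, 0.05 to 0.11 and -0.16 to -0.10, and Hmgn5 from -0.17 to -0.13, 0.06 to 0.18 and -0.33 to -0.22. Within lane 7 the Dp1Tyb difference from WT, from 1 Dp1Tyb heart, was 0.27 for Hmgn1 and -0.13 for Hmgn2. No paired analysis was possible because the labels do not name the litters that mutant and WT embryos shared, and the genotypes share no replicate numbers.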
